A study of Mus musculus with 4 samples.

Results

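The genes described here encode proteins that splice or package messenger RNA: serine/arginine-rich (SR) proteins, heterogeneous nuclear ribonucleoproteins (hnRNPs) with Tardbp, subunits of the SF3A and SF3B complexes, and proteins of the small nuclear ribonucleoprotein particles (snRNPs). They were chosen by symbol (Srsf with a digit, Hnrnp, Sf3a or Sf3b with a digit, Snrp, and Tardbp, without 1 pseudogene), which gave 53 of the 24548 genes in the count table. Of these, 46 had the 40 or more counts summed over 4 libraries that were required, as did 23128 genes in all. The 46 were 10 SR genes, 17 hnRNP genes including Tardbp, 9 SF3 genes and 10 Snrp genes. The 7 below 40 counts were Hnrnpdl, Hnrnph3, Snrpd2, Srsf2, Hnrnpa3, Hnrnpa1 and Snrpn. At the limit, Hnrnpa2b1 was inside with 41 counts, and Snrpd2 and Hnrnph3, with 30 each, were the nearest outside.

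Chromatin was precipitated with an antibody against Foxp1, a forkhead transcription factor, from the basal and the luminal epithelium of mouse mammary glands, and the recovered DNA was sequenced beside input DNA prepared with no antibody. The groups were basal Foxp1 ChIP, basal input, luminal Foxp1 ChIP and luminal input, with 1 library in each. The mice were untreated wild-type FVB/N females (written FBV/N in the sample labels), 10 to 12 weeks old. The number of animals behind a library is not stated in the labels, and no control antibody library is among the 4. With 1 library per group no difference could be set against the spread between animals, no p-value is given, and every interval below covers counting error only.

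Splicing removes introns from a transcript in a large assembly of RNA and protein. The snRNPs recognise the splice sites, SF3A and SF3B belong to the U2 particle and hold it on the branch site, SR proteins mostly promote the use of nearby exons, and hnRNPs often repress them and also package, export or stabilise RNA. These genes are used in nearly all cell types, and many SR and hnRNP proteins limit their own levels through splicing of their own transcripts.

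Between 3080114 and 4201459 reads per library were counted in gene regions. Marker genes were compared between the cell types as a check on the labels, since DNA holds every gene in every cell. Between the ChIP libraries, 8 of 8 basal markers were higher in basal cells (median log2 0.77) and 8 of 10 luminal markers were lower (median -0.41). Between the inputs the medians were 0.34 and -0.36. After correction for input the basal markers stayed above 0 (8 of 8, median 0.56), while the luminal markers did not separate (6 of 10 above 0, median 0.03). Markers of fibroblasts, endothelial cells and leukocytes had medians between -0.22 and -0.02 in basal ChIP over input and between -0.28 and 0.01 in luminal ChIP over input. None of their 17 genes was called higher in either, where 4.24% and 1.5% of all tested genes were. Dcn, Tek and Itgam were called lower in basal ChIP over input, as were 4.06% of all tested genes. A ratio to the input of the same cells does not measure how many other cells were present. Between the inputs, basal over luminal, the medians were 0.20 for fibroblast, 0.06 for endothelial and -0.09 for leukocyte markers, and none was called.

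Each ChIP library was divided by the input of its own cell type after scaling. A gene was called higher or lower when the ratio was 1.5-fold or more and its exact 99% interval excluded 1. In basal cells 7 of the 46 genes were called higher and 1 lower, where 4.24% of all tested genes were called higher and 4.06% lower. In luminal cells 3 were called higher and 2 lower, where 1.5% of all tested genes were called higher and 2.13% lower. Tardbp and Srsf3 were higher in both cell types, as were 0.467% of all tested genes. The genes called higher in basal cells were Tardbp, Hnrnpc, Hnrnpa0, Hnrnpul1, Hnrnpd, Srsf3 and Srsf6, and those in luminal cells were Tardbp, Hnrnpu and Srsf3. The median log2 ratio of the 46 was 0.27 in basal cells, where it was -0.01 over all tested genes, and 0.16 in luminal cells, where it was near 0 (-0.0024) over all. A log2 ratio above 0 was found for 31 of the 46 in basal cells and for 32 in luminal cells, against 48.4% and 49.6% of all tested genes. None of the 9 SF3 and 10 Snrp genes was called higher in either cell type. At 4.24% and 1.5% of all tested genes, no call among so few genes is near the all-gene share.

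The basal calls depended on the input used. When the 2 inputs were summed as the background, 1 of the 7, Tardbp, was still called. The other 6 had log2 ratios of 0.42 (Hnrnpd) to 0.57, below 1.5-fold. In that setting 2 of the 46 genes were called lower. Of all tested genes 3.13% were called higher, so the members' share was no longer above that of all genes. The median of the 46 was 0.23, against -0.01 over all tested genes. With scaling by total counts 4 of the 46 were called higher, against 3.01% of all tested genes. With the interval widened by the extra spread seen among olfactory receptor genes, all 7 basal and all 3 luminal higher calls were kept, and none of the 3 lower calls was. Of all tested genes 3.58% were then called higher in basal and 1.13% in luminal cells. The all-gene lower calls went from 939 to 243 in basal and from 492 to 125 in luminal cells.

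**Figure D1:**
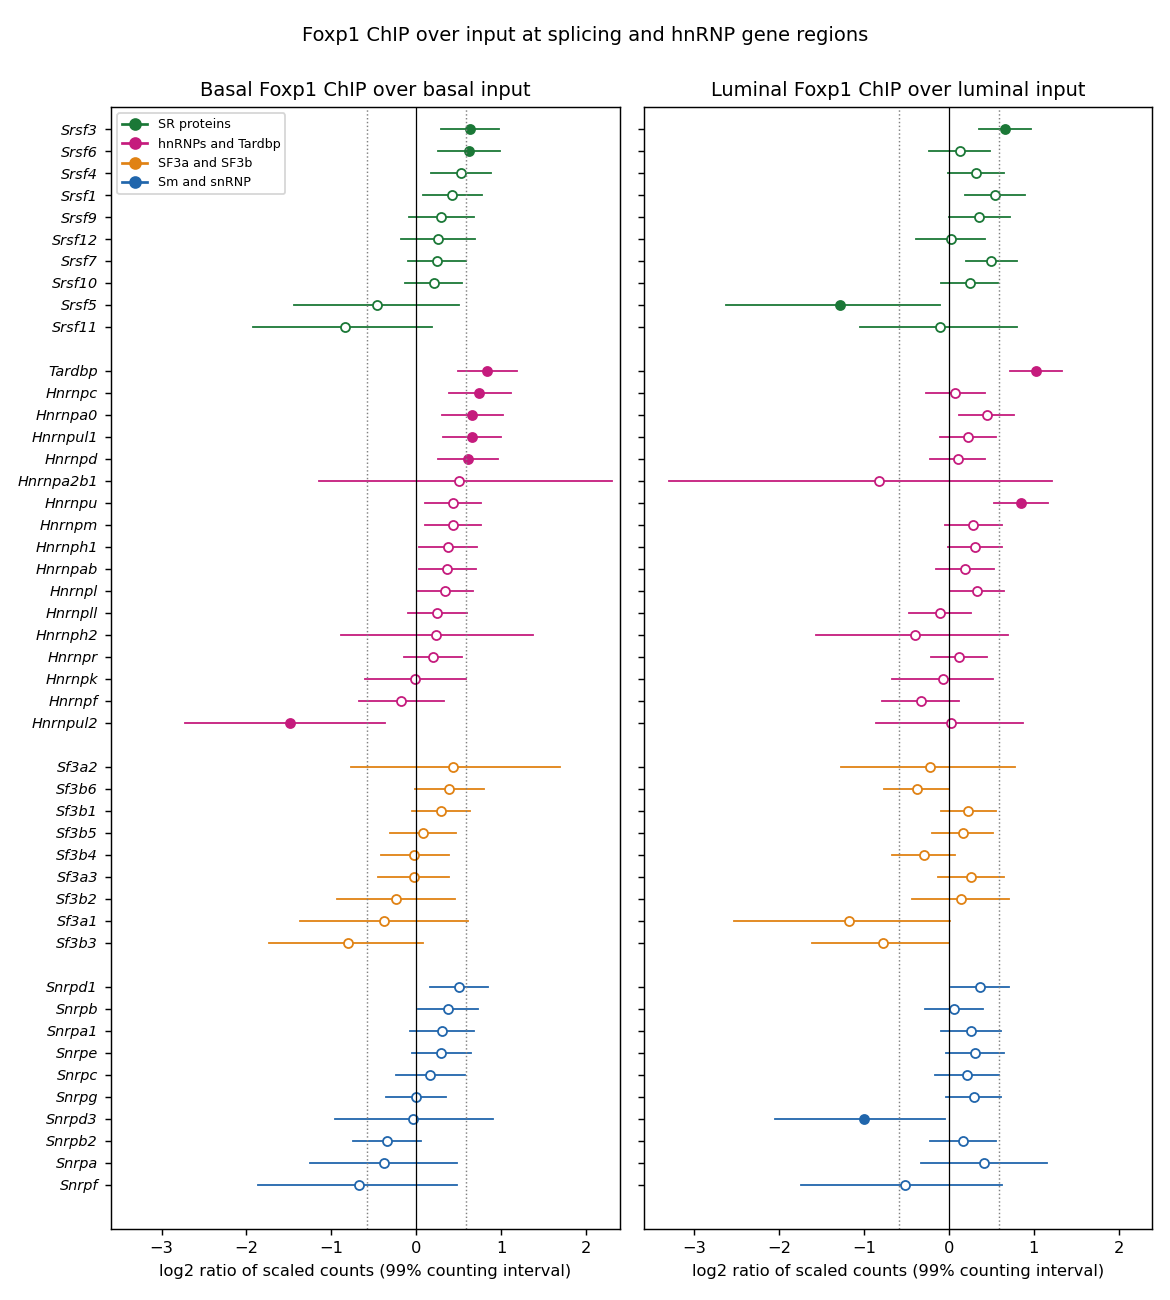
Log2 ratio of ChIP over input for each of the 46 genes in basal cells (left) and luminal cells (right), grouped by role and ordered by the basal value. Bars are exact 99% intervals for counting error, filled points are called genes and dotted lines mark 1.5-fold. Tardbp is the highest gene in both panels, at 0.84 in basal and 1.03 in luminal cells. None of the 9 SF3 and 10 Snrp genes is called higher, where 4.24% (basal) and 1.5% (luminal) of all tested genes are.

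The DNA before the start of the 8 genes called higher in either cell type is shown because the counts follow a window around the gene's start, as described with the input reads. Each run holds the 250 bases before the start that RefSeq lists (GRCm38.p6, which mm10 is made from), read 5′ to 3′ on the strand of the gene, and each of the 8 has 1 listed start. Capitals mark matches on either strand to motifs searched for. These were the forkhead motif TGTTTAC with its variant forms TATTTAC and also TGTTTAT. The others searched were the GC box (GGGCGG), the CCAAT box, the ETS-type motif CCGGAAG and the CRE-type motif TGACGTC.
Their positions are chr13:58128557-58128806 (minus strand) for Hnrnpa0, chr14:52104022-52104271 (minus strand) for Hnrnpc, chr5:99978939-99979188 (minus strand) for Hnrnpd, chr1:178337816-178338065 (minus strand) for Hnrnpu, chr7:25754760-25755009 (minus strand) for Hnrnpul1, chr17:29032410-29032659 (plus strand) for Srsf3, chr2:162931258-162931507 (plus strand) for Srsf6, chr4:148626997-148627246 (minus strand) for Tardbp.
Hnrnpa0: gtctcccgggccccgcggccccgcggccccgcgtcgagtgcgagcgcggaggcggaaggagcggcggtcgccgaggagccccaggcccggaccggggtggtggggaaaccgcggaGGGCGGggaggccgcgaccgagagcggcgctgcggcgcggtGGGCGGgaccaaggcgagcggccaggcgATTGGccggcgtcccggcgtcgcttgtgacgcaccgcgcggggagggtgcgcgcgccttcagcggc
Hnrnpc: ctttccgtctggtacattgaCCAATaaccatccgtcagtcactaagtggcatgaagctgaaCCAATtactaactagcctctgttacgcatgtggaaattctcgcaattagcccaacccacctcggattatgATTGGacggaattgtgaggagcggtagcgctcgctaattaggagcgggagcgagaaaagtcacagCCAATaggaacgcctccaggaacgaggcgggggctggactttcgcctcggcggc
Hnrnpd: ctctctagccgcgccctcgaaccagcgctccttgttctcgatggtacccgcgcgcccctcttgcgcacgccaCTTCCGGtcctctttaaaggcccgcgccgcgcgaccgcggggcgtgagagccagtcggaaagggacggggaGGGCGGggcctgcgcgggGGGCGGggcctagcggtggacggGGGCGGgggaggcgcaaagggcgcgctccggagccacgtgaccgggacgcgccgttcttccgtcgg
Hnrnpu: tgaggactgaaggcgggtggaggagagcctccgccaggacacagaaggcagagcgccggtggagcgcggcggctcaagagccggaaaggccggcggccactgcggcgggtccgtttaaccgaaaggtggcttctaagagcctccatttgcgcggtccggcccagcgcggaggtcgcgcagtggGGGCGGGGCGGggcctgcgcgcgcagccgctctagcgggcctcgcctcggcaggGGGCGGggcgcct
Hnrnpul1: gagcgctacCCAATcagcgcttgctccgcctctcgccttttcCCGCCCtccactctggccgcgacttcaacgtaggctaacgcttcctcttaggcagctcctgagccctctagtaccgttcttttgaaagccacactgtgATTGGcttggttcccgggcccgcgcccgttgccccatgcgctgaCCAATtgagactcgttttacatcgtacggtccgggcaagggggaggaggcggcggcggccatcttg
Srsf3: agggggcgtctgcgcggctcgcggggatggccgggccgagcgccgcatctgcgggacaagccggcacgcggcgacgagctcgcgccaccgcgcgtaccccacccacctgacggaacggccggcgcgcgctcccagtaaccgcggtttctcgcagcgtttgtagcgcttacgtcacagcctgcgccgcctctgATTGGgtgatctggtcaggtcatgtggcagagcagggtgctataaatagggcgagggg
Srsf6: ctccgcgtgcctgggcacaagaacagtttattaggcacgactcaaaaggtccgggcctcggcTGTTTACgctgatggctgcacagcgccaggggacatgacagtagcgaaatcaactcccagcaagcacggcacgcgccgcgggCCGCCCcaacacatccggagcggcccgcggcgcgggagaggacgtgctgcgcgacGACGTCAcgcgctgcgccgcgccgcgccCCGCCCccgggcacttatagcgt
Tardbp: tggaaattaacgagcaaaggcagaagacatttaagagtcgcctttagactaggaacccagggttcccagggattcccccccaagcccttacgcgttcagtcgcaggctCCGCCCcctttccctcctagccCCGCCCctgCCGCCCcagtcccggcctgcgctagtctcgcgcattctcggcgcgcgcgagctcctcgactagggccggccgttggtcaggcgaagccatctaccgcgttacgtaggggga
GC boxes stand in 6 of these 8 runs and CCAAT boxes in 4, and of the 8 only Hnrnpul1 and Hnrnpa0 hold both. Hnrnpc holds 4 CCAAT boxes and no GC box, while Hnrnpu holds 3 GC boxes, 2 of which share a base. A forkhead motif was found in 1 of the 8, Srsf6, at 188 to 182 bases before the start. No match says only that these letters are absent from this window, and the window that the counts follow is wider.

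Among the hnRNP genes, Tardbp had the highest ratios. Tardbp encodes TDP-43, which binds UG-rich RNA and represses cryptic exons. The gene lies on chromosome 4 (gene body 148612382 to 148627084 in GRCm38, Entrez gene 230908), and the region counted for it is not stated. It had 360 basal ChIP reads against 171 in the basal input, and 379 luminal ChIP reads against 253 in the luminal input. After scaling this was 1.79-fold in basal cells (99% interval 1.40 to 2.29) and 2.04-fold in luminal cells (1.65 to 2.52). Tardbp stood above 98.4% of all tested genes in basal and 99.7% in luminal cells. Its enrichment did not separate the cell types, with a log2 difference, basal minus luminal, of -0.19 (99% interval -0.65 to 0.27). The luminal call held in 9 of 9 other settings and the basal call in 8 of 9, lost only when 2-fold was required.

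Hnrnpc, whose protein binds uridine tracts in nascent RNA, had 324 reads in basal ChIP against 164 in basal input, a 1.68-fold ratio (1.31 to 2.16). In luminal cells it had 214 reads in ChIP against 276 in input, a 1.06-fold ratio (0.83 to 1.34). The difference between the cell types was 0.67 on the log2 scale (standard error 0.19), and Hnrnpc was 1 of 2 genes called higher in basal over luminal enrichment. Its 2 inputs differed in the opposite sense, with a basal over luminal log2 ratio of -0.30, and between the ChIP libraries directly the ratio was 0.36.

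Hnrnpa0, Hnrnpul1 and Hnrnpd lay close together at 1.52 to 1.58-fold in basal cells. Hnrnpa0, an hnRNP that binds AU-rich elements, had 321 reads in basal ChIP against 172 in input and 269 in luminal ChIP against 269 in input. Hnrnpul1, which resembles hnRNP U and takes part in the DNA damage response, had 351 against 189 in basal cells and 245 against 285 in luminal cells. Hnrnpd, the AU-rich element factor AUF1, had 325 against 181 in basal cells and 242 against 306 in luminal cells. The luminal ratios were 1.36-fold, 1.17-fold and 1.08-fold, and none of the 3 was called in luminal cells. The differences between cell types (log2 0.22, 0.43 and 0.50) were not called either, so that a call in 1 cell type does not show a difference between them.

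Hnrnpu, whose product (scaffold attachment factor A) binds both RNA and chromatin, was called in luminal cells. It had 326 reads in luminal ChIP against 247 in luminal input, a 1.80-fold ratio (1.44 to 2.24), and 329 in basal ChIP against 207 in basal input, a 1.35-fold ratio (1.07 to 1.71). The log2 difference was -0.41 (99% interval -0.87 to 0.04) and was not called. Hnrnpm, Hnrnph1, Hnrnpab and Hnrnpl, which regulate splice sites or bind elements in RNA, had log2 ratios of 0.34 to 0.43 in basal and 0.19 to 0.33 in luminal cells without reaching 1.5-fold. Hnrnpk and Hnrnpf lay at -0.01 and -0.17 in basal cells and at -0.07 and -0.33 in luminal cells. Over the 17 hnRNP genes 14 had a basal and 12 a luminal log2 ratio above 0, with medians of 0.37 and 0.12.

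Hnrnpul2, a relative of hnRNP U, was the lowest of the hnRNP genes in basal cells and the 1 gene called lower there. It had 16 reads in basal ChIP against 38 in basal input, a 0.36-fold ratio (0.15 to 0.78), and 35 in luminal ChIP against 47 in luminal input, a 1.01-fold ratio (0.55 to 1.84). The log2 difference was -1.48 (standard error 0.53), the 1 call in that direction, and all its counts were low. Both calls were lost with the widened interval. By gene bodies, Ttc9c lay 48 bases from Hnrnpul2, for which no transcription start was available. Hnrnpa2b1, the lowest of the group in luminal cells with 5 reads in ChIP against 12 in input, had an interval of 0.10 to 2.33-fold and was not called.

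Srsf3 and Srsf6 were the SR genes called higher. Srsf3, an SR protein that also serves in mRNA export (chromosome 17, 29032660 to 29043372, Entrez gene 20383), had 343 reads in basal ChIP against 188 in basal input and 334 in luminal ChIP against 287 in luminal input. The ratios were 1.55-fold (1.22 to 1.97) in basal and 1.58-fold (1.28 to 1.96) in luminal cells. Srsf6, an exon enhancer-binding SR protein, had 305 reads in basal ChIP against 168 in input, 1.54-fold (1.20 to 1.99), and 196 in luminal ChIP against 244 in input, 1.09-fold (0.85 to 1.40). Srsf1, the SR protein first known as ASF/SF2, stood at 1.34-fold in basal and 1.46-fold in luminal cells with both intervals above 1, short of the fold required. Srsf4 (log2 0.52 and 0.32) and Srsf7 (0.25 and 0.50) were also above 0 in both. The medians of the 10 SR genes were 0.27 in basal and 0.28 in luminal cells, and 8 of the 10 were above 0 in each.

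The SR genes with few reads went the other way. Srsf5 had 30 reads in basal ChIP against 35 in input and 13 in luminal ChIP against 43 in input, and its luminal ratio of 0.41 (0.16 to 0.93) was called lower. Srsf11, the lowest SR gene in basal cells, had 23 against 35 in basal cells and 30 against 44 in luminal cells and was not called. The call on Srsf5 was lost with the widened interval.

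No SF3 gene was called against its own input in either cell type. Their median was close to that of all tested genes in basal cells (-0.02 against -0.01) and below the lower quartile of all tested genes in luminal cells (-0.22 against -0.19). Sf3b1, the SF3B subunit that clamps the branch site, had 297 reads in basal ChIP against 206 in input and 257 in luminal ChIP against 298 in input, ratios of 1.22-fold (0.97 to 1.55) and 1.17-fold (0.94 to 1.47). Sf3b6, the small subunit that contacts the branch-point adenosine, had 227 against 147 in basal cells and 156 against 276 in luminal cells. Neither ratio was called (1.31-fold and 0.77-fold), but the log2 difference of 0.77 (standard error 0.21) was called higher in basal cells. As with Hnrnpc, the inputs moved against it (basal over luminal log2 -0.46), the ratio of the ChIP libraries alone was 0.31, and the call was lost with the inputs summed or the interval widened. The highest and lowest SF3 genes were Sf3a2 (log2 0.43) and Sf3b3 (-0.81) in basal cells and Sf3a3 (0.26) and Sf3a1 (-1.18) in luminal cells. Between the ChIP libraries directly, a comparison not corrected for input, none of the 46 genes was called higher in basal cells and 2 were called lower, Sf3b2 (61 reads in basal against 82 in luminal ChIP, log2 -0.66) and Hnrnpul2 (log2 -1.36), where 4.05% of all tested genes were called higher and 3.98% lower.

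Among the 10 Snrp genes 1 was called, Snrpd3, lower in luminal cells, where 2.13% of all tested genes were called lower. Snrpd3 encodes a subunit of the Sm ring that surrounds the RNA of most spliceosomal snRNPs. It had 21 reads in luminal ChIP against 57 in input, a 0.50-fold ratio (0.24 to 0.97), and 38 in basal ChIP against 33 in input, a 0.98-fold ratio (0.52 to 1.87). The luminal call was lost under 4 of 8 other settings. Snrpd1, another Sm ring gene, was highest in basal cells with 327 reads against 196 (log2 0.50) and stood at 0.37 in luminal cells with 239 against 252. Snrpa, a protein of the U1 particle, was highest in luminal cells (0.42) on 54 reads in ChIP against 55 in input, and Snrpf, of the Sm ring, was lowest in basal cells (-0.67) on 20 against 27. Snrpb2 and Snrpa1, which pair in the U2 particle, were at -0.34 and 0.30 in basal cells and at 0.17 and 0.26 in luminal cells. The medians of the 10 Snrp genes were 0.08 in basal and 0.24 in luminal cells.

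**Figure D2:**
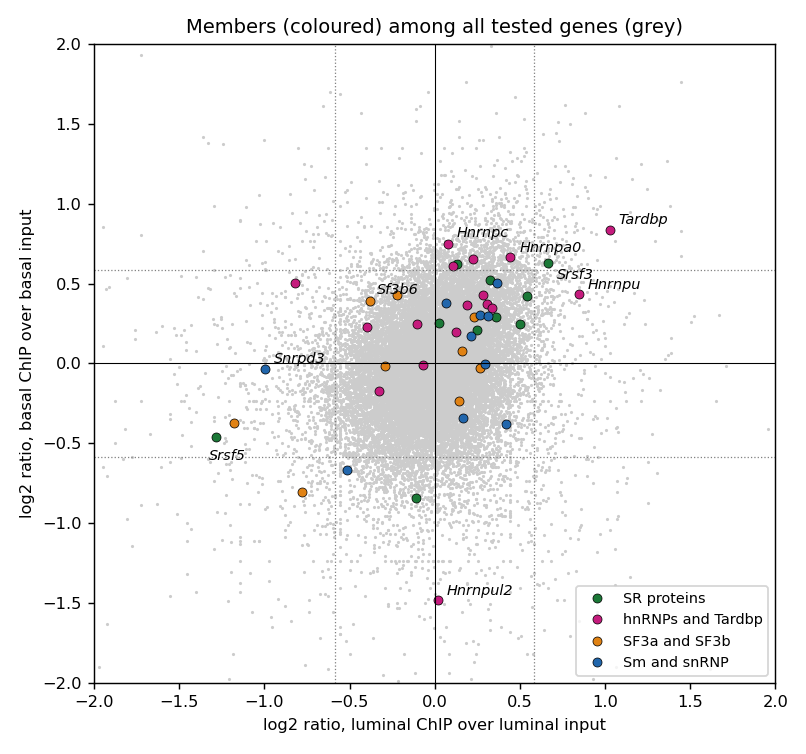
Log2 ratio of basal ChIP over basal input (y axis) against that of luminal ChIP over luminal input (x axis) for all tested genes within the axes (grey) and the 46 genes (coloured by role). Dotted lines mark 1.5-fold. Tardbp and Srsf3 are past 1.5-fold on both axes, and 26 of the 46 genes are above 0 on both.

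The basal and luminal ratios of the 46 genes had a Pearson's r of 0.46 and a Spearman's rho of 0.48, given as a description over genes that share the same 4 libraries. In all, 26 genes were above 0 in both cell types and 9 below 0 in both. Over the 46 genes, enrichment was called higher in basal than in luminal cells for 2 (Sf3b6 and Hnrnpc) and lower for 1 (Hnrnpul2), against 3.72% and 4.16% of all tested genes, and the median log2 difference was 0.06. Summed over the 46 genes there were 9638 reads in basal ChIP against 6562 in basal input, a log2 ratio of 0.32 (99% interval 0.26 to 0.38), and 8077 in luminal ChIP against 9310 in luminal input, 0.24 (0.18 to 0.30). By role the summed basal ratio was 0.43 for hnRNP, 0.37 for SR, 0.18 for Snrp and 0.09 for SF3 genes, and the luminal ratio was 0.29, 0.35, 0.21 and -0.04. None of the 46 was called between the 2 inputs, where 0.709% of all tested genes were called higher and 0.463% lower. The scatter of the members' counts around a common ratio was 3.91 times that of counting alone in basal ChIP over input and 4.89 times in luminal ChIP over input, but 1.14 times between the inputs. Over all tested genes these values were 4.46, 2.87 and 1.91. The intervals of the summed reads cover counting error only and not this scatter between genes.

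Most of the genes with few reads had another gene's start close to their own. Transcription starts were available for 47 of the 53 genes; Snrpb, Snrpd1, Sf3b5, Hnrnpul2, Hnrnpll and Sf3b4 had no entry. Several windows around the start were compared with the input reads of all autosomal genes, after the values had been seen. For a window from 3000 bases before to 2000 after the start, the part of it that lay in no other gene's window had a Spearman's rho of 0.80 with the summed input reads over the 3361 genes whose windows overlapped another, against 0.54 for the next highest of the 7 windows compared, 3000 bases on each side, and between -0.03 and 0.44 for the other 5. The median input sum was 361 in the 14039 autosomal genes with a free window, 61 where the nearest other start was within 500 bases and 36 where it was 500 to 1500 bases away. The counts were therefore read as coming from such a window, with reads in overlapping windows left out; no source used here states this.

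**Figure D3:**
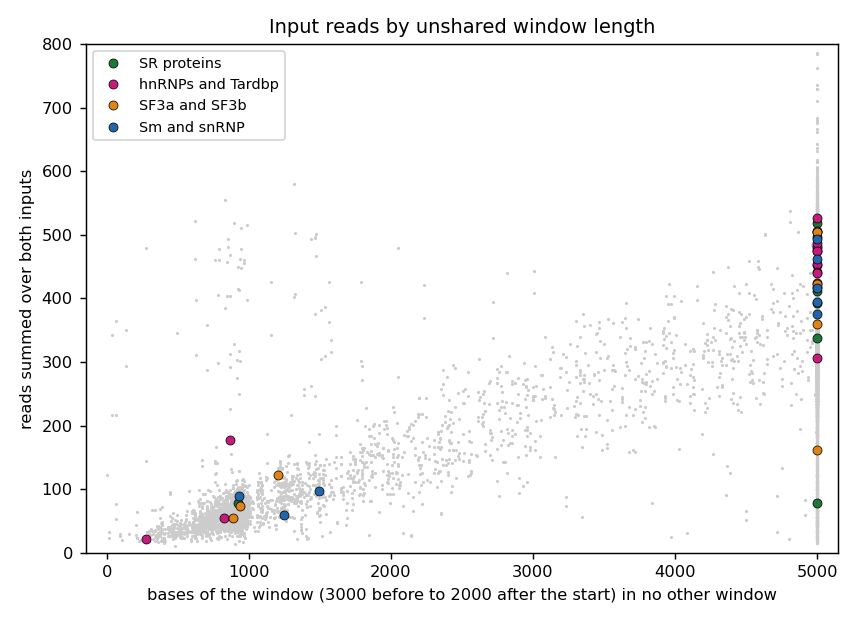
Reads summed over both inputs (y axis, highest values not shown) against the bases of each gene's window that lie in no other gene's window (x axis), for tested autosomal genes (grey) and members (coloured, including Hnrnph2 on the X chromosome). Tested members with a free window of 5000 bases mostly have over 300 input reads, and those with a shared window have 21 to 177.

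By this measure 15 of the 47 genes had a shared window. Each had another start within 772 bases, on the opposite strand in 14 of the 15, and in all 15 the start itself lay in the part shared with another gene. Hnrnpa2b1 was paired in this way with Cbx3 at 722 bases, Hnrnpa1 with Cbx5 at 545 bases and Srsf2 with Mfsd11 at 668 bases; Cbx3 and Cbx5 encode heterochromatin proteins. Snrpn, an imprinted gene, shared its start with the noncoding RNA gene Snhg14. Of the 7 genes under 40 counts 5 had shared windows (Hnrnpa1, Hnrnpdl, Hnrnph3, Snrpn and Srsf2). The other 2 were Hnrnpa3 and Snrpd2; by gene bodies in the RefSeq table, Snrpd2 lay 249 bases from Qpctl and Hnrnpa3 6106 bases from Nfe2l2. For Srsf5, free by its start, the nearest gene body was 96 bases away. Hnrnpul2, with no start entry, lay 48 bases from Ttc9c. How reads that map to several places were counted is not stated, so counts of genes with near-identical copies are uncertain. The low counts therefore do not show whether Foxp1 ChIP recovered their starts.

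Median ratios of the members were higher where the window was free. The 30 tested members with a free window had median log2 ratios of 0.32 in basal and 0.26 in luminal cells, against -0.0005 and 0.0079 in all 14359 genes with a free window, and 24 and 27 of the 30 were above 0. All 7 basal and all 3 luminal higher calls were among these 30 (23.3% and 10% of them), where 4.36% and 1.41% of all genes with a free window were called higher. The 10 tested members with a shared window had medians of -0.20 and -0.45, against -0.08 and -0.06 in all 3073 such genes; 3 of the 10 were above 0 in basal cells and 1 in luminal cells, and Snrpd3 was the 1 called. By role, the free-window medians were 0.43 and 0.26 for 12 hnRNP genes, 0.29 and 0.32 for 9 SR genes, 0.17 and 0.26 for 5 Snrp genes and 0.13 and 0.19 for 4 SF3 genes. Of the 10 with a shared window 3 were SF3 and 3 were Snrp genes, so that role and window were not independent.

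**Figure D4:**
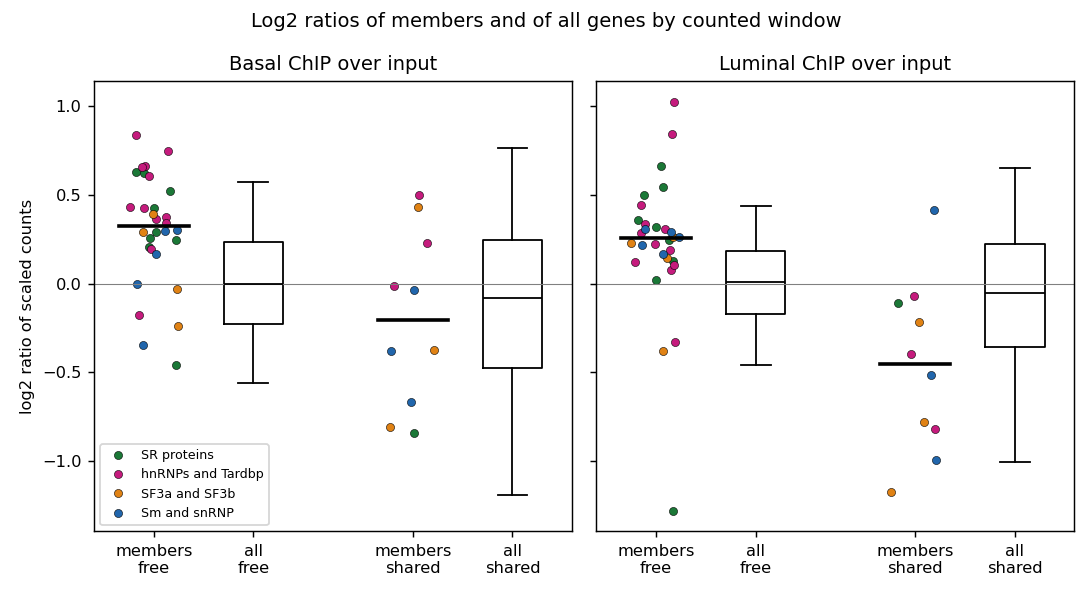
Log2 ratios in basal (left) and luminal cells (right) for members (points, with a bar at their median) and for all tested genes with a start entry (boxes: quartiles and median, whiskers at the 5th and 95th percentiles), by whether the window was free or shared. The 30 members with a free window have medians of 0.32 and 0.26, and the 10 with a shared window of -0.20 and -0.45.

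The members' starts were rich in CG dinucleotides. Over the 300 bases from 250 before to 50 after the start, the ratio of observed to expected CG was 0.6 or more in 38 of the 40 tested members with an entry (95%), against 48.6% of 17432 tested genes, and the median GC content was 60.16% against 56.33%. ChIP ratios moved with GC content over all genes with a free window: the basal median was -0.15 under 50% GC, -0.01 at 50 to 60%, 0.14 at 60 to 70% and 0.22 at 70% or more, and the luminal median was -0.06, -0.01, 0.07 and 0.12. The members had basal medians of 0.33 over 12 genes, 0.29 over 11 and 0.57 over 6 in the last 3 classes, and luminal medians of 0.24, 0.31 and 0.28. In those 3 classes 8.33%, 27.3% and 50% of the members were called higher in basal cells, against 3.54%, 7.18% and 9.63% of all genes. Among genes with a free window and a CG ratio of 0.6 or more the medians of 28 members were 0.35 in basal and 0.26 in luminal cells, against 0.16 and 0.09 in 6276 genes. The part of base composition in the members' ratios was not tested.

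**Figure D5:**
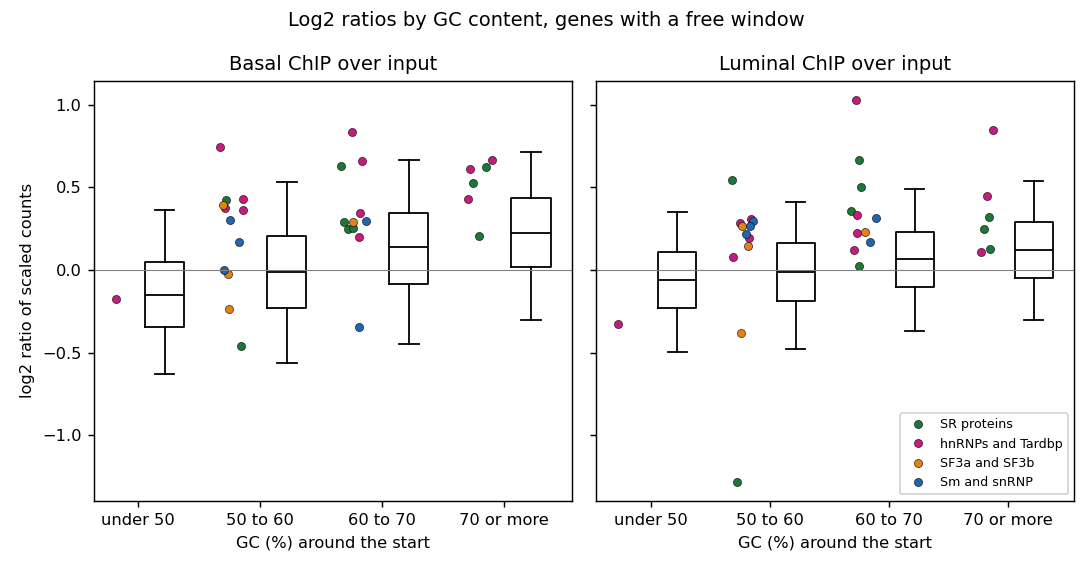
Log2 ratios in basal (left) and luminal cells (right) by GC content around the start, for genes with a free window: members as points to the left of the box of all such genes (quartiles and median, whiskers at the 5th and 95th percentiles). The all-gene median rises with GC content, from -0.15 to 0.22 in basal and from -0.06 to 0.12 in luminal cells, and most members lie above it.

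Of the motifs searched on both strands of the 300 bases, a forkhead motif was found in 2 of the 40 members (5%), Srsf6 and Snrpf, against 9.09% of all tested genes with an entry. Both matches were to TGTTTAC. The GC box was found in 67.5% of members against 46.7%, the CCAAT box in 45% against 38.7% and the CRE-type motif in 10% against 4.14%. The ETS-type motif CCGGAAG was found in 16 of 40 members (40%), against 11.8% of all; of the 8 genes called higher only Hnrnpd held it. Members had fewer AT-rich and more GC-rich letters than all genes, as given above, and these shares were not adjusted for that.

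Other genes of the splicing machinery were examined from lists chosen with earlier results known. Of 64 tested genes of a list of 69 other spliceosome genes, 3 were called higher in basal cells (4.69%; Srrm2, Dhx8 and Prpf39) and 2 lower (Cwc15 and Ik), with a median of 0.08. The share called higher was close to the 4.24% of all tested genes, of which 4.06% were called lower. In luminal cells 2 were higher (3.12%, U2af2 and Lsm7), against 1.5% of all tested genes. Another 2 were lower (Casc3 and Bud31), where 2.13% of all tested genes were called lower, and the median was 0.03. Srrm2, a large SR-related scaffold of nuclear speckles, had 322 reads in basal ChIP against 171 in input, 1.60-fold (1.25 to 2.05). U2af2, which binds the polypyrimidine tract before the 3′ splice site, had 297 in luminal ChIP against 261 in input, 1.55-fold (1.24 to 1.93). Lsm7, of the ring on U6 RNA, reached 2.47-fold in luminal cells on 40 against 22 reads (1.23 to 5.22). Between cell types 1 of the 64 was called higher in basal cells (1.56%), Casc3 of the exon junction complex (log2 1.32). Cwc15 (-1.63) and Rbm22 (-0.65) were called lower. Of all tested genes 3.72% were called higher and 4.16% lower. Casc3 rested on 47 reads in basal ChIP against 31 in input and 23 in luminal ChIP against 62. Cwc15 rested on 14 against 46 and 28 against 47. The lower calls on Ik and Bud31 rested on 8 reads against 24 in basal cells and 7 against 29 in luminal cells. Between the ChIP libraries directly Ik, Snrnp40 and Snrnp25 were lower in basal cells, where 3.98% of all tested genes were called lower.

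Among 39 tested splicing regulators outside the families, those called higher in basal cells included Sfpq at 1.57-fold (308 reads in ChIP against 166 in input) and Rbm39 at 1.51-fold (373 against 209). Of all tested genes 4.24% were called higher there. Sfpq is a paraspeckle protein and Rbm39 resembles U2af2. The neuronal regulator Rbfox3 was called lower in basal cells (95 against 130), where 4.06% of all tested genes were called lower. None of the 39 was called in luminal cells, where 1.5% of all tested genes were called higher and 2.13% lower. Khdrbs1, the signalling-linked regulator Sam68, had 289 reads against 172 in basal cells and 153 against 287 in luminal cells. Its log2 difference was 0.97 (99% interval 0.46 to 1.49), the 1 higher call between cell types (2.56%, against 3.72% of all tested genes). The neuronal Nova2 and Khdrbs2 were the 2 called lower, at -0.88 and -0.68, where 4.16% of all tested genes were called lower. Khdrbs2 was also called higher between the inputs (basal over luminal log2 0.88), as were 0.709% of all tested genes. Khdrbs1 was called higher between the ChIP libraries (0.68), as were 4.05% of all tested genes. Nova2 and the epithelial regulator Esrp2 were called lower between the ChIP libraries (-0.61 and -0.66), where 3.98% of all tested genes were called lower.

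Among 8 tested kinases that act on SR proteins or related splicing factors, 3 were called higher in basal cells (37.5%, against 4.24% of all tested genes). They were Prpf4b (381 reads against 193), Clk3 (309 against 157) and Dyrk1a (372 against 195), at 1.68-fold, 1.67-fold and 1.62-fold. Dyrk1a was also called in luminal cells, at 1.56-fold (330 against 288). It was the 1 luminal call of the 8 (12.5%, against 1.5% of all tested genes). The medians of the 8 kinases were 0.40 in basal and 0.38 in luminal cells. For comparison, 71 ribosomal protein genes had medians of 0.09 and 0.06 with 5.63% and 1.41% called higher, and 57 RNA polymerase and Mediator genes had medians of 0.09 and 0.05 with 3.51% and 1.75% called higher. These shares are descriptions of the same 4 libraries.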

How the data were processed

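Foxp1 ChIP and input DNA were measured in basal and luminal mouse mammary cells, 1 library per group, as single reads of 75 to 85 bp per the labels' protocols. The authors deposited unnormalized counts of reads for each gene, made with featureCounts on build mm10 per the submitters' processing notes. For the aligner, tool versions, duplicate and multiply mapped reads and counted region, no details were stated. Depth was 3080114 to 4201459 counts per library, and the files per sample held the same counts as the table of the series for 24548 of 24548 genes.

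TMM factors (edgeR 4.0.16, R 4.3.3) were computed over the 4 libraries on the 23128 genes with 40 or more counts. Log2 ratios of scaled counts were given exact Clopper-Pearson 99% intervals, and the ratio of ratios between cell types a normal interval from the 4 counts plus 0.5. Intervals take every read as its own molecule, although PCR can copy molecules, and with 1 library per group the intervals compare libraries, not conditions. The calling script was tested on simulated counts with counting error only. Olfactory receptor genes scattered 2.29 times counting error in basal and 2.13 times in luminal ChIP over input. The simulation therefore does not show how the intervals perform at that scatter. Python 3.11.15, numpy 2.4.6, pandas 2.3.3, scipy 1.17.1 and matplotlib 3.10.9 were used. Gene positions and promoter sequences came from RefSeq on GRCm38.p6; 53 of 53 members matched the gene table and 47 the promoter table. Where a gene had several starts, the one nearest the gene's RefSeq 5′ end was used.

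Members and lists were chosen with earlier results of these data known. Named were all members called in any comparison, the extremes of each role group, genes at the count limit and called genes of the other splicing lists; a few others are named as examples, chosen after their values were seen. Alternatives were total-count and DESeq2 1.42.0 scaling, centring on olfactory receptors, a widened interval, a 95% interval, a 2-fold threshold, summed inputs, filters of 0 and 200 counts and the exclusion of genes with close neighbours. The windows around starts and the split by free window were added after the data were seen. For the list of splicing regulators, 1 result is not reported here.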

Additional observations from a re-analysis of the deposited data

Results flagged for a closer look

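For 3 genes the enrichment differed between basal and luminal cells by the ratio of ratios. Sf3b6 differed by 0.77 on the log2 scale (99% interval 0.22 to 1.31) and Hnrnpc by 0.67 (0.17 to 1.16), both higher in basal cells, and Hnrnpul2 by -1.48 (-2.85 to -0.11). All 3 were lost with the widened interval. Sf3b6 and Hnrnpc were also lost at 2-fold and with the inputs summed, and Hnrnpul2 when centred on olfactory receptors. Hnrnpul2 rests on 16 to 47 reads per library.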

How the results depend on the processing

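Counts are of members called, medians are log2 ratios. The basal higher count of 7 became 4 with total counts, 15 centred on olfactory receptors, 0 at 2-fold and 1 with the inputs summed. In the same order 3.01%, 13%, 0.553% and 3.13% of all tested genes were called higher. The basal lower count of 1 became 0 with the widened interval, 3 with the 95% interval and 2 with the inputs summed. It was also 0 with a filter of 200 counts and among members with a free window. Hnrnpul2, the gene behind that 1 call, had 136 counts and no start entry, so these last 2 settings left it out. The same holds for its lower call between cell types. Over all tested genes the basal lower count of 939 became 243 with the widened interval, 1209 with the 95% interval and 865 with the inputs summed. The luminal higher count of 3 became 1 at 2-fold, where 0.203% of all tested genes were called higher, and stayed at 3 or 4 otherwise. The luminal lower count of 2 became 4 with total counts or the 95% interval, 1 centred on receptors, at 2-fold or with a free window, and 0 with the widened interval or 200 counts. Over all tested genes the luminal lower count of 492 became 605 with total counts and 686 with the 95% interval. It became 306 centred on receptors, 132 at 2-fold and 125 with the widened interval. Between cell types the 2 higher became 4 centred on receptors and 0 with the widened interval, at 2-fold or with the inputs summed. In the same order 8.91%, 0.891%, 0.575% and 4.05% of all tested genes were called higher. The 1 lower became 0 centred on receptors, with the widened interval, 200 counts or a free window, and 2 with the inputs summed. Over all tested genes the lower count of 963 became 405 centred on receptors, 128 with the widened interval and 920 with the inputs summed. The basal median of 0.27 was 0.22 with total counts, 0.49 centred on receptors, 0.23 with the inputs summed and 0.32 with a free window. The luminal median of 0.16 was 0.23 centred on receptors, 0.22 with 200 counts and 0.26 with a free window, and the median difference of 0.06 was 0.21 centred on receptors. No median changed sign in the settings run. Centring on receptors moved the all-gene median to 0.20 in basal cells, 0.07 in luminal cells and 0.15 for the difference, and with it 13% of all genes were called higher in basal cells. Of all basal calls 51.1% were higher, against 34.7% with total counts and 92.8% centred on receptors, and of luminal calls 41.4%, 30.7% and 65.1%. Of the members' basal calls 87.5%, 80% and 93.8% were higher in these settings (7 higher and 1 lower, 4 and 1, 15 and 1). Of their luminal calls 60%, 42.9% and 80% were higher, on few calls (3 higher and 2 lower, 3 and 4, 4 and 1). The cause of these moves was not tested. Depth limited members with few reads, such as Hnrnpa2b1, whose luminal interval ran from 0.10 to 2.33-fold. No paired analysis was possible because each group has 1 library, and for the same reason none could be left out.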

Other observations

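Input reads themselves were high at the tested members with a free window, but not at the 10 with a shared window (median 76, against 77 in all such genes). The 30 tested members with a free window had 78 to 527 reads summed over the inputs, with a median of 447, against 360 in all genes with a free window, and 25 of the 30 lay above that value.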
